A study of Mus musculus with 6 samples.

Results

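The genes described here encode the actin contractile apparatus of smooth muscle and of myofibroblasts: actins, the proteins that coat and cross-link actin filaments, the myosin II motor and its regulators, adhesion proteins that anchor the filaments, and the transcription factor SRF. They were chosen by symbol, as smooth muscle, sarcomeric and non-muscle isoforms, by a rule that names no measured value, although earlier results of these data were known when they were chosen. All 37 were found among the 25239 gene symbols of the count table. Expression was measured by sequencing of ribosomal RNA-depleted total RNA from mouse primary pulmonary fibroblasts, in 3 libraries labelled quiescent and 3 labelled Nutlin 3a-induced senescent. Nutlin 3a is a drug that frees p53 from Mdm2. Per the labels, the cells were kept in medium with 10% serum at 5% oxygen, and the induction consisted of RO3306, a Cdk1 inhibitor, for 16 hours, Nutlin 3a for 48 hours and then 100 nM BI-2536, a Plk1 inhibitor used to remove proliferating cells, with 12 days in total. The quiescent samples carry the same treatment text; the sources used here give neither the way quiescence was reached nor the strain, age or number of animals. Separate cultures or animals are not stated for the replicates. The p-values therefore reflect variation among these 6 libraries alone, which may be technical.

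A myofibroblast is a fibroblast that has assembled contractile stress fibres, and the smooth muscle actin gene Acta2 is its usual marker in injured lung. Smooth muscle and stress fibres contract when myosin light chain kinase phosphorylates the myosin light chain, and a phosphatase removes that phosphate. The genes of this apparatus are classical targets of SRF, which binds a DNA element called the CArG box together with the coactivators Mrtfa and Mrtfb, proteins that enter the nucleus when free actin monomer is scarce, or with Myocd in smooth muscle.

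Gene totals were 93736593 to 109706025 counts per library, of which Rn45s, Lars2 and Mir6236, treated here as ribosomal rows, held 79.8% to 82.8%. CPM, the usual depth-scaled count with TMM-adjusted library totals, are computed over all rows and are therefore low in absolute terms. The listed fibroblast markers (Col1a1, Col1a2, Col3a1, Pdgfra, Dcn, Lum, Fn1 and Vim) summed to 4672 to 4806 CPM in quiescent and 3963 to 4392 CPM in senescent libraries. This sum hides opposite changes. Of these 8 genes, 4 were lower in senescent libraries, Col3a1 (-1.95 on the log2 scale), Pdgfra (-1.45), Col1a2 (-0.47) and Lum (-0.46). Another 3 were higher, Fn1 (0.94), Vim (0.32) and Dcn (0.18), and Col1a1 did not pass. Markers of macrophages summed to 3.90 to 4.15 CPM in quiescent and 10.7 to 14.1 CPM in senescent libraries, and those of epithelium to 1.18 to 1.20 and 6.10 to 7.86 CPM. All 4 tested macrophage genes of 7 listed and both tested epithelial genes of 6 were higher, and the other listed genes were too low to test. Ptprc, the pan-leukocyte marker, had 1, 0 and 2 counts in quiescent and 9, 2 and 7 in senescent libraries, Adgre1 had 0, 0 and 3 and then 12, 8 and 9, and Itgam 7, 5 and 2 and then 22, 10 and 37, each with all senescent CPM values above all quiescent ones. Most of the epithelial sum came from Krt19, at 0.847 ± 0.0405 CPM in quiescent and 6.60 ± 0.897 CPM in senescent libraries (SD, n = 3). Epcam, the epithelial surface marker, had 0, 3 and 0 counts and then 1, 2 and 0. Cdh1 had 2, 7 and 0 counts and then 1, 1 and 8. Krt8 had 7, 11 and 8 and then 0, 4 and 4, and Sftpc 2, 3 and 5 and then 0, 1 and 2. Of 4 tested endothelial genes 1 was higher and 1 lower. Of 5 mesothelial genes 1 was higher, which was Krt19 again, and 2 lower. The part of other cells in the results below was not tested, and in bulk RNA fewer cells of a type cannot be told apart from less RNA per cell.

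The contractile genes rose together in senescent libraries, with 3 members going the other way. Of the 37 genes, 36 passed the filter on low counts, and 31 of these were higher and 3 lower at an adjusted p under 0.05 in edgeR's quasi-likelihood test, while Cnn2 and Tln1 did not pass. Over all 14065 tested genes, 36.7% were called higher and 37.8% lower by the same rule, 74.5% in either direction. The same shares belong beside the counts of each group of genes below. The members' median log2 fold change was 1.02, beside -0.02 over all tested genes. More than 2-fold higher were 19 members and more than 2-fold lower 1, beside 11% and 14.3% of all tested genes. The 3 senescent libraries lay above the 3 quiescent ones for the 31 risen members and below them for the 3 fallen ones, a separation found upward in 38.4% and downward in 39.9% of all tested genes. All 37 members made up 2.02%, 2.07% and 1.92% of the counts outside the ribosomal rows in quiescent libraries and 3.20%, 3.20% and 2.77% in senescent ones (exact permutation test, two-sided p = 0.1, the smallest that 3 against 3 libraries can give). Scaling by library totals moved the median of all tested genes to -0.32 and the calls over all genes to 2952 higher and 7435 lower, and under it 26 members were higher and 4 lower.

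**Figure D1:**
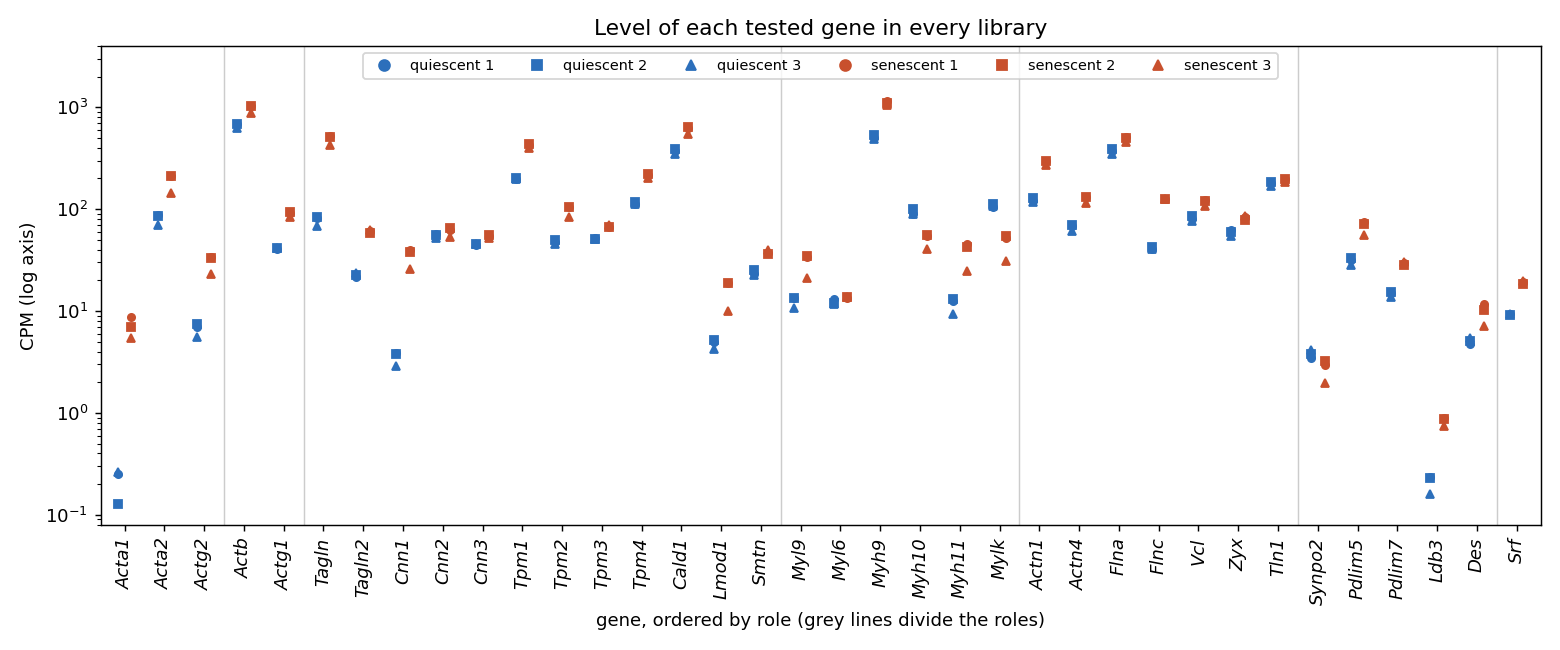
CPM on a log axis for the 36 tested genes in each of the 6 libraries, ordered by role, with blue for quiescent and orange for senescent and a marker shape for each replicate number. The orange points lie above the blue ones for 31 genes and below them for Myh10, Mylk and Synpo2.

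**Figure D2:**
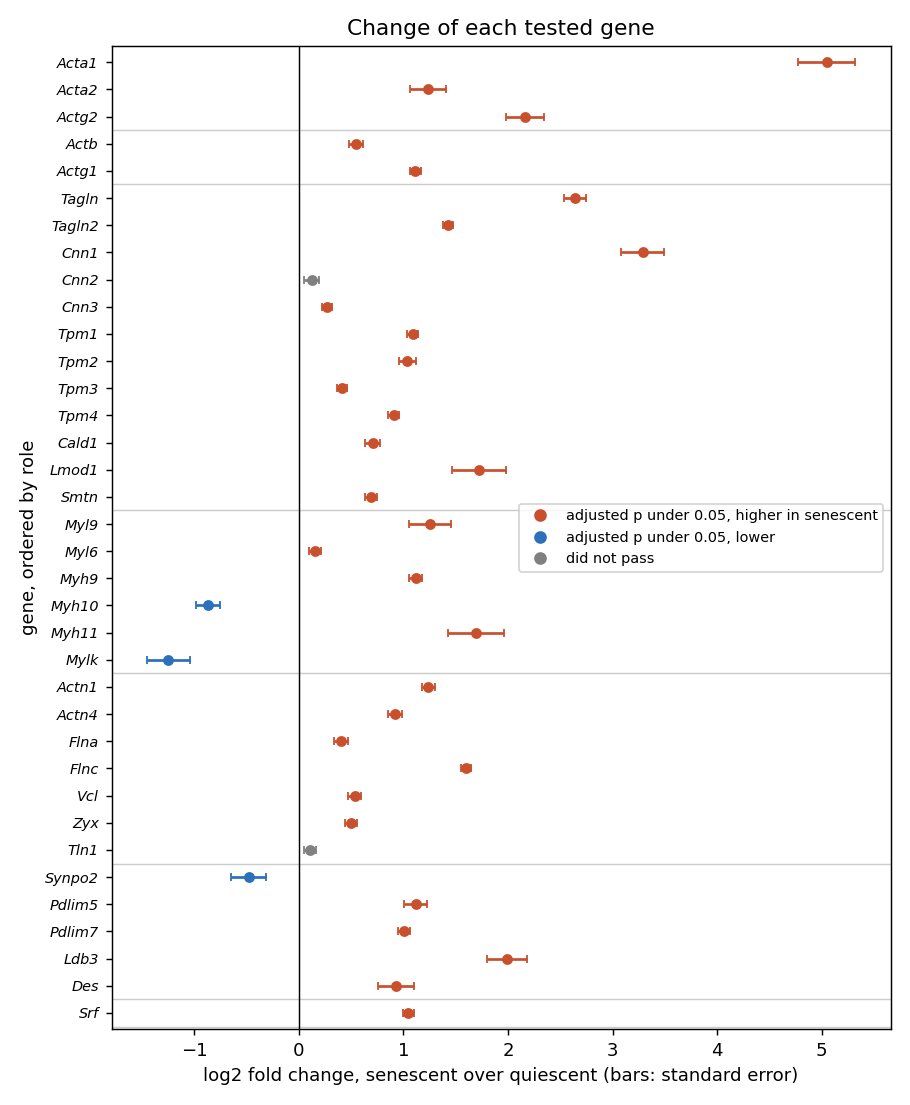
Log2 fold change of senescent over quiescent libraries for the 36 tested genes, with bars for the standard error, ordered by role. Acta1 stands farthest to the right at 5.05 and Mylk farthest to the left at -1.25.

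Srf, the transcription factor that drives many of the other members, rose about as much as the median member. It stood at 9.43, 9.20 and 9.28 CPM in the quiescent libraries and at 19.3, 18.5 and 19.9 CPM in the senescent ones. The spread within each group was small beside the difference, and the log2 fold change was 1.05 (standard error 0.05, adjusted p = 7.2e-09 in edgeR). Its widely expressed coactivators did not pass the test: Mrtfa had a log2 fold change of -0.08 (adjusted p = 0.18 in edgeR) and Mrtfb of 0.01 (adjusted p = 0.90 in edgeR). Myocd, the smooth muscle coactivator, rose from 0.150 ± 0.0483 to 0.439 ± 0.0807 CPM (SD, n = 3), a level at which each library holds few reads.

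The CArG box, searched by its usual consensus on both strands, was looked for in the RefSeq promoter windows of GRCm38.p6, each running from 250 bases before to 50 bases after a start site. Windows were found for 33 of the 37 members; Actb, Actg2, Myh11 and Tagln had none. A box lay in 10 of the 39 windows of members (25.6%) and in 1.63% of all 32851 windows. The windows of Ldb3 overlap and hold the same box, which is counted in each. The members were listed as contractile genes, which are classical SRF targets, so this difference is not independent of how the list was chosen. The 9 genes with a box were Acta1, Actc1, Actg1, Cnn2, Ldb3, Myl6, Myl9, Srf and Vcl. The stretches below run from 110 to 11 bases before the start site and are shown because genes with a box there had very different changes, a choice made after the matches were seen; capitals mark the CArG boxes.

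Acta1, chr8:123894786-123894885, minus strand: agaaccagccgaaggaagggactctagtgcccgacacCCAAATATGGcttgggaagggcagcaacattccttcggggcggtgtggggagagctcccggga
Actc1, chr2:114052886-114052985, minus strand: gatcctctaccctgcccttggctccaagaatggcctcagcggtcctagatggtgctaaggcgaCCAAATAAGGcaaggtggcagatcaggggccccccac
Srf, chr17:46556173-46556272, minus strand: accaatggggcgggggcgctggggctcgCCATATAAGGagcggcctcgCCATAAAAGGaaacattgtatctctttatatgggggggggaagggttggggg
Actg1, chr11:120348506-120348605, minus strand: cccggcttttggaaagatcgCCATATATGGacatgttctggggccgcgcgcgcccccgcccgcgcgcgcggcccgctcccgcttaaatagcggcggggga
Cnn2, chr10:79988490-79988589, plus strand: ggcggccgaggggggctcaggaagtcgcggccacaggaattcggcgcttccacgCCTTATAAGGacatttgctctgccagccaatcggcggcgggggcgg
Acta2, chr19:34255384-34255483, minus strand: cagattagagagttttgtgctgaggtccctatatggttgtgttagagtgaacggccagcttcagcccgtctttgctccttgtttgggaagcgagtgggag

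Srf itself holds 2 boxes, beginning 82 and 62 bases before its start site. Acta1 and Actc1, the skeletal and cardiac muscle actin genes, hold boxes that begin 73 and 47 bases before theirs, and Acta1 was the member with the largest increase whereas Actc1 was barely detected. Cnn2 holds a box 56 bases before its start site and did not pass the test, while Acta2, which rose, has no exact match to the consensus in this stretch. The search allowed only A or T between the outer CC and GG. The Acta2 stretch holds the near matches ccctatatgg and ccttgtttgg, which have a C and a G within that run and were therefore not marked. Near matches were not searched for in the other windows. A match describes the letters of the window and is not evidence of binding.

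The actin genes split into 4 muscle isoforms and 2 cytoplasmic ones, and all 5 that could be tested rose. Acta2, which encodes smooth muscle alpha-actin (chromosome 19, 34241090 to 34255590 on GRCm38), stood at 87.3, 85.3 and 69.9 CPM in quiescent and at 212, 214 and 144 CPM in senescent libraries. The groups did not overlap, but senescent replicate 3 lay well below the other senescent libraries. The fold was 2.35, with a log2 fold change of 1.23 (standard error 0.17, adjusted p = 4.7e-04 in edgeR). Actg2, the enteric smooth muscle gamma-actin gene (chromosome 6, 83512905 to 83536265), gave 7.02, 7.41 and 5.52 CPM against 33.8, 33.0 and 22.8 CPM, a log2 fold change of 2.16 (standard error 0.18). Again the replicate numbered 3 was the lowest of its group in both conditions.

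Acta1, the skeletal muscle alpha-actin gene (chromosome 8, 123891769 to 123894751), was close to silent in quiescent cells. It had 27, 15 and 28 counts there, or 0.254, 0.127 and 0.264 CPM, and 870, 627 and 562 counts in senescent libraries, or 8.72, 7.01 and 5.46 CPM. Every senescent library was far above every quiescent one, with a 32.9-fold difference in means and a log2 fold change of 5.05 (standard error 0.27, adjusted p = 5.8e-07 in edgeR). Of 14 skeletal and cardiac muscle genes listed outside the members, 6 could be tested, 1 rose (Ryr1, 1.05 on the log2 scale) and 4 fell, among them Myh1 at -2.62 and Tnnt2, a cardiac troponin gene, at -1.36. Myf5 and Pax7 had no count in any library, and Actc1, the cardiac actin gene, had 1, 2 and 0 counts in quiescent and 1, 1 and 2 in senescent libraries, too few for a fold or a test.

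Actb, the cytoplasmic beta-actin gene and the most abundant member per exon length, stood at 692, 683 and 633 CPM in quiescent and at 1018, 1019 and 888 CPM in senescent libraries. Its log2 fold change was 0.54 (standard error 0.07, adjusted p = 2.1e-05 in edgeR; 0.24 under library totals), so a gene often used as a constant reference was higher here in each senescent library. Actg1, the cytoplasmic gamma-actin gene, stood at 40.9, 42.0 and 41.7 CPM and at 91.2, 94.6 and 83.9 CPM, a log2 fold change of 1.11 (standard error 0.05). Its level is uncertain, because 51.1% of the 1853 windows of 100 bases in its longest transcript also occur in transcripts of 6 other annotated genes. The same was true of 1.10% of the windows of Actb and of none of those of the 4 muscle actins. The sources used here do not give the treatment of reads with several positions.

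Per exon length, muscle isoforms held a larger share of the actin pool in every senescent library. The 4 muscle actins together made up 14.0%, 13.9% and 12.4% of actin counts per base of merged exon in quiescent libraries and 23.0%, 22.8% and 18.8% in senescent ones. The groups did not overlap (exact permutation test, two-sided p = 0.1, adjusted p = 0.114 over 8 families; 3 against 3 cannot go lower than 0.1). Acta2 accounted for most of this, going from 12.0% ± 0.788 to 16.9% ± 1.91 of the pool (SD, n = 3). Actg2 went from 1.39% ± 0.143 to 3.75% ± 0.408, and Acta1 from 0.0460% ± 0.0176 to 0.899% ± 0.137. Actb remained the main isoform, at 81.5% ± 0.613 in quiescent and 71.8% ± 2.07 in senescent libraries.

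**Figure D3:**
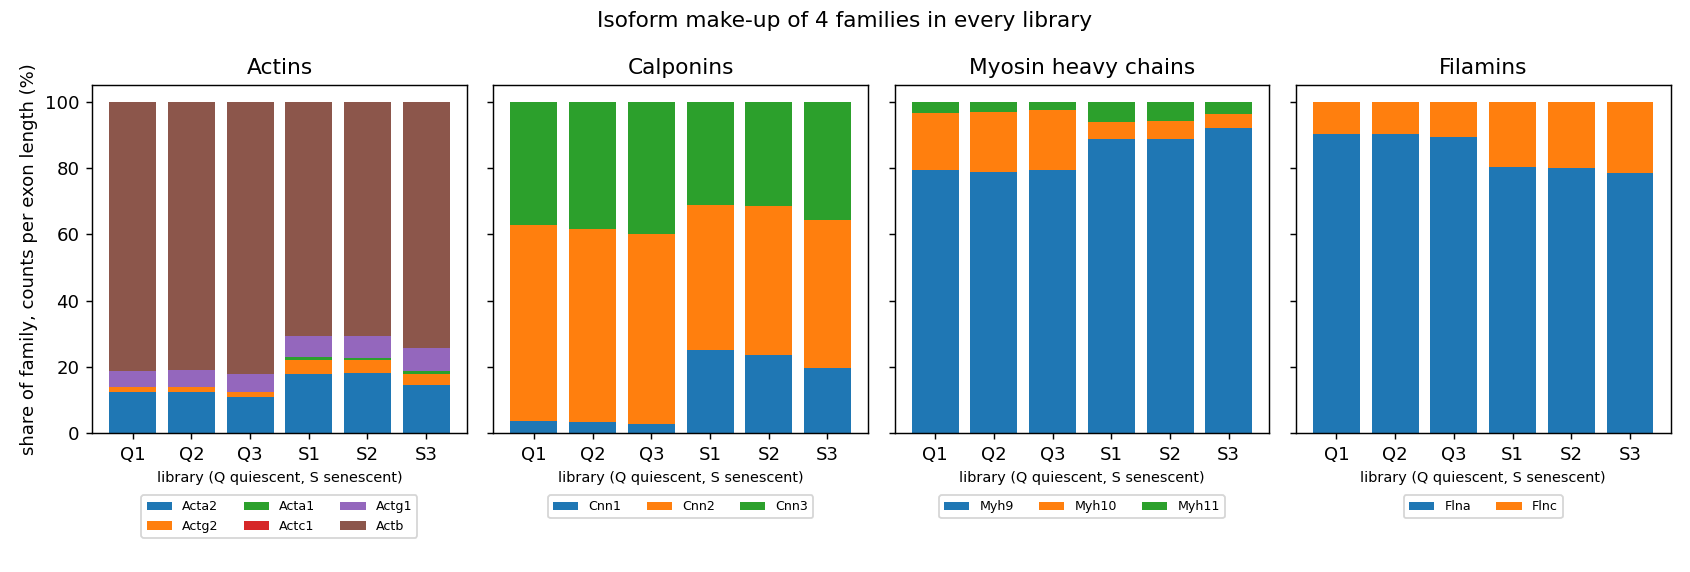
Stacked bars give each isoform's share of its family, in percent of counts per base of merged exon, in 3 quiescent (Q) and 3 senescent (S) libraries for actins, calponins, myosin heavy chains and filamins. Acta2, Cnn1 and Flnc take a larger share in all 3 senescent libraries, and Myh10 takes a smaller one.

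Among the proteins that coat the thin filament, 11 of 12 genes rose and none fell, with a median log2 fold change of 0.97. The largest log2 fold changes were those of Cnn1, Tagln and Lmod1. Tagln, which encodes the actin-bundling protein transgelin or SM22, stood at 82.7, 83.6 and 67.6 CPM in quiescent and at 517, 515 and 429 CPM in senescent libraries, a 6.25-fold difference (log2 fold change 2.64, standard error 0.10). Of its exon bases, 62.4% overlap exons of Gm48529 on the opposite strand, and the use of strand in counting is not stated in the sources used. Cnn1, for the smooth muscle calponin that inhibits the myosin ATPase (chromosome 9, 22099216 to 22109630), stood at 3.90, 3.79 and 2.87 CPM and at 39.9, 37.8 and 25.7 CPM, a 9.79-fold difference (log2 fold change 3.29, standard error 0.21). Lmod1, for the filament nucleator leiomodin, stood at 4.97, 5.16 and 4.21 CPM and at 18.8, 18.8 and 9.96 CPM. Its log2 fold change was 1.72 (standard error 0.26, adjusted p = 7.5e-04 in edgeR), with senescent replicate 3 far below the other senescent libraries and still above all quiescent ones.

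The other calponin and transgelin genes had smaller fold changes than Cnn1 and Tagln. Tagln2, the non-muscle transgelin gene, had a log2 fold change of 1.42, going from 22.7 ± 0.837 to 60.8 ± 2.21 CPM (SD, n = 3). Cnn3, the acidic calponin gene, rose by 0.27 (adjusted p = 3.1e-04 in edgeR) but had a value of -0.03 under library totals, and Cnn2 stood at 55.3 ± 2.73 and 60.1 ± 6.50 CPM with a log2 fold change of 0.12 (adjusted p = 0.16 in edgeR). Without senescent replicate 3, Cnn2 passed as higher (0.21, adjusted p = 1.7e-04 in edgeR), and under library totals its value was -0.18. Cnn1 thereby went from 3.63%, 3.51% and 2.82% of the calponin pool per exon length to 25.1%, 23.5% and 19.6%, and Tagln from 79.9%, 79.4% and 75.1% of the transgelin pool to 89.8%, 90.2% and 87.8% (exact permutation test, adjusted p = 0.114 for each).

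All 4 tropomyosin genes, whose products lie along the actin filament and control the access of myosin, rose. Tpm1 went from 199 ± 2.01 to 423 ± 19.9 CPM (SD, n = 3; log2 fold change 1.09) and Tpm2, the form enriched in smooth muscle, from 47.7 ± 2.06 to 98.0 ± 12.3 CPM (1.04). Tpm4 rose by 0.91 and Tpm3 by 0.41, the latter with 0.11 and no call under library totals (adjusted p = 0.22 in edgeR). Of the 100-base windows of Tpm3 and Tpm4, 11.8% and 7.64% are shared with another gene. Tpm2 made up 15.3%, 15.7% and 14.9% of tropomyosin counts per exon length in quiescent and 16.9%, 16.8% and 14.9% in senescent libraries, and the groups overlapped (difference 0.933 percentage points, exact permutation test, p = 0.4). The difference was 1.60 points without senescent replicate 3, where the groups no longer overlapped (exact permutation test, p = 0.2, the smallest that 3 against 2 libraries can give), 0.568 points without senescent replicate 1 and 0.597 points with plain counts. Cald1, for caldesmon, rose from 368 ± 20.9 to 600.0 ± 48.6 CPM (0.71, and 0.40 under library totals), and Smtn, for smoothelin, from 23.5 ± 1.36 to 37.9 ± 1.90 CPM (0.69, and 0.39 under library totals).

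Of the 6 myosin II genes, 4 were higher and 2 lower, beside 36.7% and 37.8% of all tested genes. Myh9, the gene of non-muscle myosin heavy chain IIA (chromosome 15, 77760587 to 77842175), stood at 504, 539 and 483 CPM in quiescent and at 1143, 1109 and 1054 CPM in senescent libraries (log2 fold change 1.12, standard error 0.06). Myh10, the gene of the IIB heavy chain (chromosome 11, 68691559 to 68816632), moved the other way, from 88.8, 99.6 and 89.7 CPM to 55.1, 55.8 and 41.0 CPM. Its log2 fold change was -0.87 (standard error 0.11, adjusted p = 1.6e-04 in edgeR), and all senescent libraries lay below all quiescent ones. Myh11, the smooth muscle heavy chain gene (chromosome 16, 14194535 to 14291372), stood at 12.6, 13.1 and 9.31 CPM and at 45.7, 42.8 and 24.6 CPM, a log2 fold change of 1.69 (standard error 0.27, adjusted p = 0.0016 in edgeR). In the heavy chain pool per exon length, Myh9 went from 79.1% ± 0.318 to 89.8% ± 1.88, Myh10 from 17.8% ± 0.476 to 5.07% ± 0.576 and Myh11 from 3.07% ± 0.412 to 5.17% ± 1.32 (SD, n = 3). Per base of merged exon, Myh11 lay above Myh10 in senescent replicates 1 and 2 and below it in replicate 3. In CPM, without division by length, Myh11 lay below Myh10 in every senescent library, so this order depends on the length used. Myh9 remained the main form throughout.

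The light chain and its kinase parted. Myl9, the regulatory light chain of smooth muscle and stress fibres, stood at 13.6, 13.4 and 10.8 CPM in quiescent and at 34.1, 34.7 and 21.1 CPM in senescent libraries (log2 fold change 1.25, standard error 0.20). Mylk, the gene of the kinase that phosphorylates it (chromosome 16, 34745210 to 35002420), stood at 106, 113 and 107 CPM and at 51.9, 54.4 and 30.8 CPM. It fell by 1.25 on the log2 scale (standard error 0.20, adjusted p = 0.0012 in edgeR), the largest decrease among the members, and by 1.03 without senescent replicate 3. The row counts all transcripts of the locus, which makes a long and a short kinase and telokin, and these cannot be told apart here. Myl6, the essential light chain gene, had a log2 fold change of 0.16 (adjusted p = 0.028 in edgeR); the call was lost without quiescent replicate 2 or 3 (adjusted p = 0.10 and 0.12 in edgeR), and the value was -0.14 under library totals. Its annotated longest transcript has 3040 bases, and a shorter one in use would make its level per length too low. The share of Myl9 in the 2 light chains was 73.9%, 75.4% and 71.8% and then 87.5%, 87.5% and 80.7% per exon length.

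Cross-linkers and adhesion proteins rose in 6 of 7 cases, by 0.40 to 1.60 on the log2 scale. Flnc, for the muscle filamin (chromosome 6, 29433256 to 29461883), was the most uniform: 40.5, 42.5 and 41.0 CPM in quiescent and 126, 125 and 125 CPM in senescent libraries, a log2 fold change of 1.60 (standard error 0.05, adjusted p = 1.4e-10 in edgeR). Flna, the ubiquitous filamin gene, rose by 0.40, and had 0.10 with no call under library totals (adjusted p = 0.33 in edgeR). Flnc went from 9.78%, 9.82% and 10.6% to 19.7%, 20.0% and 21.5% of the filamin pool per exon length. Actn1 and Actn4, the alpha-actinin genes, rose by 1.24 and 0.92, and Actn1 went from 67.0% ± 0.787 to 71.7% ± 0.545 of their pool (SD, n = 3). Both pools had groups that did not overlap, with p at the smallest value the exact permutation test allows (0.1).

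Zyx, for zyxin, which senses strain on stress fibres, rose from 58.7 ± 3.70 to 82.7 ± 3.38 CPM and Vcl, for vinculin at the adhesion plaque, from 80.5 ± 4.23 to 117 ± 7.98 CPM (SD, n = 3; log2 fold change 0.53, and 0.23 under library totals). Of the exon bases of Vcl, 25.5% overlap Ap3m1 on the opposite strand. Under library totals Zyx did not pass (0.20, adjusted p = 0.058 in edgeR). Tln1, for talin, which ties integrins to actin, stood at 181, 187 and 170.1 CPM and at 199.5, 196 and 183 CPM, so the groups overlapped. Its log2 fold change was 0.11 (adjusted p = 0.10 in edgeR), it passed as higher without senescent replicate 3 (0.15, adjusted p = 0.0074 in edgeR), and it was lower under library totals (-0.19, adjusted p = 0.049 in edgeR).

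Of the genes for Z-disc, PDZ and intermediate filament proteins, 4 of 5 rose and 1 fell. Ldb3, for the sarcomeric Z-disc protein Cypher, had 25, 27 and 17 counts in quiescent and 88, 78 and 77 counts in senescent libraries, or 0.208 ± 0.0412 and 0.834 ± 0.0743 CPM (SD, n = 3), a log2 fold change of 1.99 (standard error 0.19). Pdlim5 and Pdlim7, relatives of Ldb3 that dock kinases on stress fibres, rose by 1.12 and 1.00. Des, for the muscle intermediate filament desmin, stood at 4.77, 5.09 and 5.42 CPM and at 11.8, 10.1 and 7.11 CPM (log2 fold change 0.93, adjusted p = 0.0020 in edgeR). Synpo2, for the smooth muscle Z-disc protein synaptopodin 2, went the other way, from 3.42, 3.80 and 4.14 CPM to 2.97, 3.25 and 1.95 CPM. This change was small (-0.48, adjusted p = 0.028 in edgeR), lost its call without quiescent replicate 2 or 3 (adjusted p = 0.066 and 0.091 in edgeR) or with no filter on low counts (adjusted p = 0.078 in edgeR), and was -0.28 without senescent replicate 3 and -0.78 under library totals.

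The members differed in how far replicates spread. Senescent replicates 1 and 2 differed by less than 0.1 on the log2 scale for 33 of the 36 tested members. Senescent replicate 3 was the lowest senescent library for 28 of 36, beside 40.2% of all tested genes, and quiescent replicate 3 the lowest quiescent library for 25 of 36, beside 34.2% of all tested genes. In the senescent group the deficit of replicate 3 against the mean of the others was deepest for Lmod1 (-0.91), Myh11 (-0.85), Mylk (-0.79), Myl9 (-0.70), Synpo2 (-0.67), Des (-0.62) and Cnn1 (-0.59), of which Mylk and Synpo2 had fallen and the others risen. It was near 0 or reversed for Srf (0.08), Zyx (0.07), Pdlim7 (0.08), Smtn (0.12) and Tagln2 (0.07). The median over members was -0.20 beside -3.1e-04 over all tested genes. For the latter a small constant was added to CPM before the logarithm, so these medians are not quite the same measure. Without senescent replicate 3, 33 members were higher and 3 lower.

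**Figure D4:**
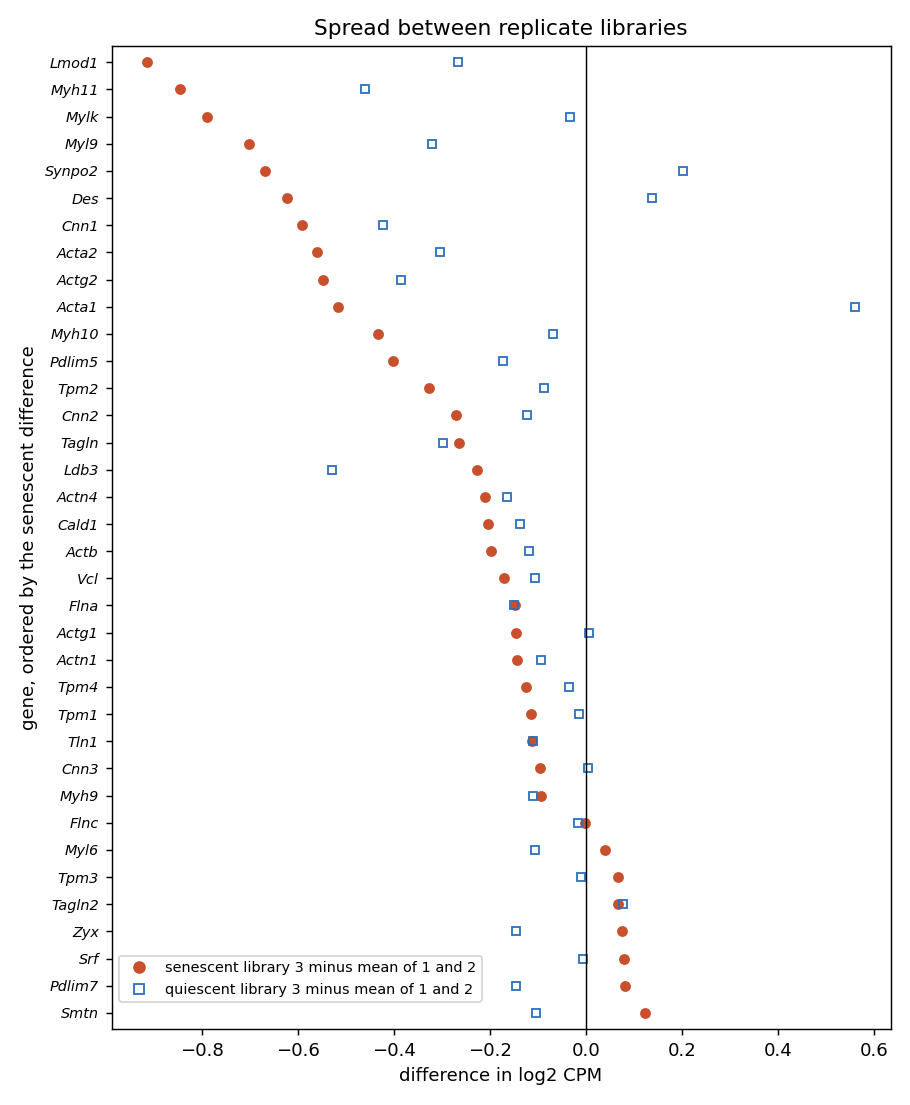
Difference in log2 CPM between the replicate numbered 3 and the mean of the replicates numbered 1 and 2, for the 36 tested genes, with filled circles for senescent and open squares for quiescent libraries. The circles run from -0.91 for Lmod1 to 0.12 for Smtn, and 29 of the 36 lie below 0.

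Genes that work with the contractile apparatus were read beside the members. Elk3, an ETS factor gene that partners SRF, rose by 0.92 on the log2 scale, and Ppp1cb, for the catalytic subunit of myosin phosphatase, by 0.90. Ppp1r14a, for the myosin phosphatase inhibitor CPI-17, fell from 5.49 ± 0.129 to 1.19 ± 0.470 CPM (SD, n = 3; -2.22). Mylk and this phosphatase inhibitor gene, whose products both favour light chain phosphorylation, were thus lower while the light chain gene Myl9 was higher.

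Of 33 actin assembly and turnover genes, 25 rose and 7 fell, beside 36.7% and 37.8% of all tested genes. The largest increases were those of Cap2, a cyclase-associated actin-binding protein gene (2.39), Enah, which promotes filament elongation (1.42), and Tmsb4x, for the monomer-binding thymosin beta-4 (1.14). Gsn, for the severing protein gelsolin, fell from 189 ± 4.86 to 60.3 ± 5.39 CPM (SD, n = 3; -1.65), Diaph3, a formin gene also needed for cytokinesis, by 1.40 and Tmsb10 by 0.59, so the 2 thymosin genes of the list moved in opposite directions. All 8 listed genes of the Arp2/3 complex, which nucleates branched actin, Arpc1a, Arpc1b, Arpc2, Arpc3, Arpc4, Arpc5, Actr2 and Actr3, rose, by 0.21 to 0.96.

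Of 27 focal adhesion and stress fibre partners, 14 rose and 6 fell, beside 36.7% and 37.8% of all tested genes. Pdlim1 (1.89), Lims2 (1.55) and Csrp2 (1.48), genes of LIM domain proteins, rose most among genes whose average log2 CPM was 0 or more, and among the same genes Pdlim2 (-2.47), Sorbs3, for the vinculin-binding protein vinexin (-2.20), and Fhl1 (-1.52) fell most. Pdlim2 went from 39.7 ± 0.455 to 7.20 ± 1.22 CPM (SD, n = 3), while its relatives Pdlim5 and Pdlim7 rose. Over all 84 partner genes tested, 49 were higher and 21 lower, and library totals gave 38 and 33. Under library totals, 2952 of all 14065 tested genes were higher and 7435 lower.

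**Figure D5:**
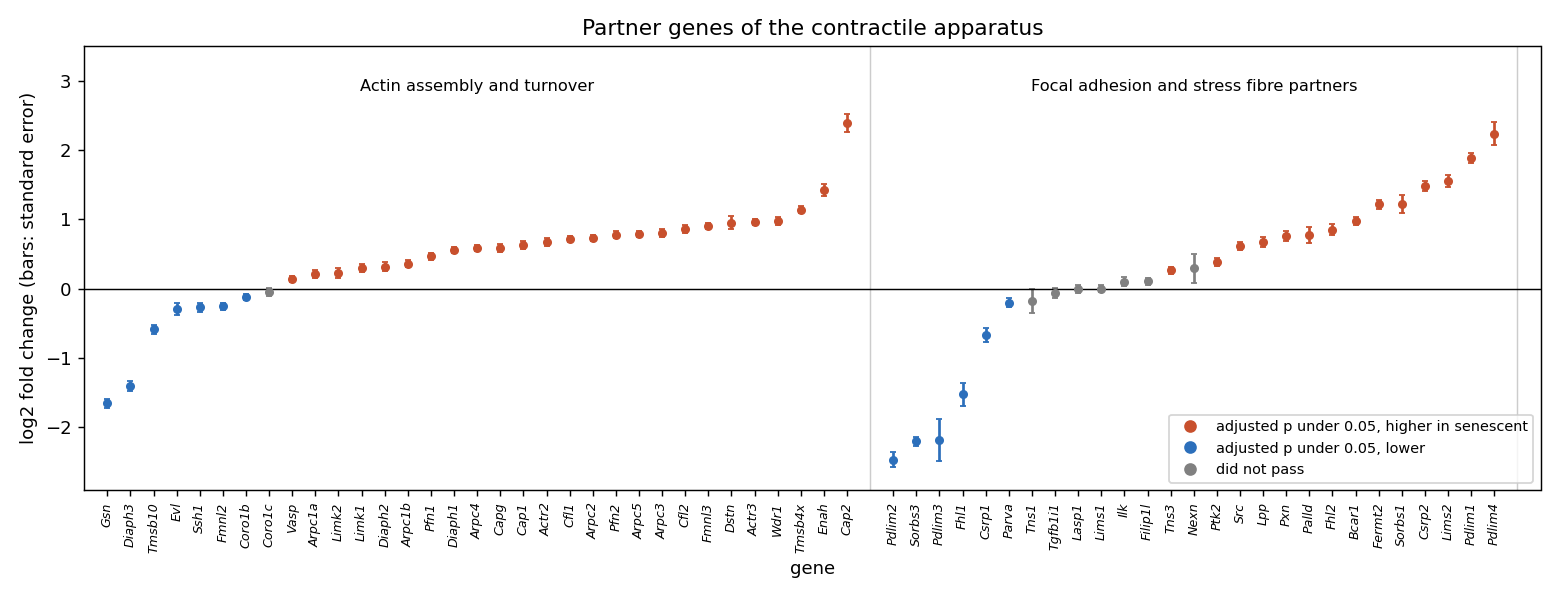
Log2 fold change with its standard error for the 33 actin assembly and turnover genes and the 27 focal adhesion and stress fibre partners, ordered by value within each list. Points above 0 outnumber those below it most clearly among actin assembly and turnover genes, 25 against 7 that passed. Over all tested genes, 36.7% passed as higher and 37.8% as lower.

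Markers of smooth muscle and pericytes other than the members went both ways. Of 10 tested, 5 rose and 4 fell, beside 36.7% and 37.8% of all tested genes. Those that rose were Kcnmb1 (2.78), Cspg4 (2.48), Myocd (1.53), Mcam (0.96) and Rgs5 (0.39, with 0.09 and no call under library totals). Kcnmb1 and Myocd were low, with means of 1.00 and 0.439 CPM in senescent libraries. Those that fell were Itga8 (-1.67), Pdgfrb (-1.01), Abcc9 (-0.90) and Notch3 (-0.63). The summed level of this marker list was 189 to 197 CPM in quiescent and 91.0 to 110.4 CPM in senescent libraries. Most of it came from Pdgfrb, at 153 ± 4.96 and 76.1 ± 5.85 CPM (SD, n = 3).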

How the data were processed

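The members and lists were chosen with earlier results of these data known. The authors deposited a table of raw counts by gene symbol. The submitters' processing notes name mm10, edgeR 3.32.1 and limma 3.46.0, with no role stated. Aligner, counter and strand: not given in the sources used here. Repeat counts were not used here. The test was edgeR's robust quasi-likelihood F test (edgeR 4.0.16, R 4.3.3) after TMM scaling and filterByExpr (minimum count 10, group given), with Benjamini-Hochberg adjustment over 14065 genes and a threshold of 0.05. Standard errors are absolute log2 fold changes over the root of F. Shares used counts divided by merged exon length from GENCODE M21 (GRCm38, the assembly of mm10), which held 24366 of 25239 symbols and all 37 members. Shared windows of 100 bases were counted on its transcripts. Named genes were all members and, per list, up to 3 risen and 3 fallen genes with the largest change at a mean log2 CPM of at least 0; other list genes were named after their values were seen. On simulated counts of this comparison over 14065 genes, 68% of the 50 genes given a 1.3-fold change were called, 96% of those given 1.5-fold and 100% of those given 2-fold; 11 of 193 calls were false. The simulation gave all genes a common dispersion and changed only well-counted genes, 50 per fold, equally up and down. Its rates need not hold in the data, where 74.5% of tested genes were called and spread differed between genes. Depth covers counting error only. Alternatives were DESeq2 1.42.0, limma-voom (limma 3.58.1), other scalings, filters and thresholds, a replicate block and each library left out. The partner counts include a list of 24 tested genes that is not reported here gene by gene.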

Additional observations from a re-analysis of the deposited data

How the results depend on the processing

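The count of higher members ran from 24 to 33 and that of lower members from 2 to 4 over the alternatives tried. The median log2 fold change of members, 1.02, became 0.93 under upper quartile factors (all tested genes -0.12) and 0.72 under library totals (all tested genes -0.32). Against a 1.5-fold change tested directly, 27 partner genes were higher and 8 lower, and under library totals 33 were lower. Under library totals the values of Cnn2 (-0.18), Cnn3 (-0.033), Myl6 (-0.14), Tln1 (-0.19) and Dcn (-0.12) changed sign; the cause was not tested. Of 612 pairs of a member and an alternative, 587 kept direction and side of the threshold, 19 lost the call, 2 gained it and 4 changed sign. All 8 isoform shares kept their direction in every alternative run, but with plain counts the difference for Myh11 was 1.24 in place of 2.10 percentage points and that for Myl9 17.4 in place of 11.5. The sources used here do not state whether the replicate numbers pair the samples. Deviations of same-numbered libraries correlated at 0.0880, -0.0043 and 0.103, and not every library correlated best with its own number. Deviations from a mean of 3 libraries are tied to each other, so these values cannot decide it. Among the members, replicate 3 was the lowest of its group for most tested genes in both conditions. With the replicate number as a block, 31 members were higher and 3 lower, with 10405 genes called in all against 10474, and no member's call changed. In the block the exact test of shares cannot go below p = 0.25.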
